A study of Rattus norvegicus with 24 samples.

Results

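The genes described here belong to the lining of the third ventricle and the tissues that border it: Ttr, Rarres2, Dynlrb2, Foxj1, Dio2, Crym and Vim, which are markers of choroid plexus, ciliated ependyma and tanycytes and include genes that handle thyroid hormone. A probe set, a group of short oligonucleotides that together report 1 transcript, was taken as a member when the platform's probe table gave it exactly 1 of these symbols. This found 7 probe sets for 7 genes, 1 each, among 31042 probe sets and 14217 named genes. They are 1367598_at for Ttr, 1371691_at for Rarres2, 1383895_at for Dynlrb2, 1387386_at for Foxj1, 1369778_at for Dio2, 1368059_at for Crym and 1367574_at for Vim.

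RNA came from the hypothalamic blocks of 18 male Wistar rats, an outbred laboratory strain, aged 7 weeks, with 1 array per rat and 6 rats per group. The control rats are labelled only as controls, the stress rats were restrained in wire mesh for 2 h, and the linalool rats were restrained likewise while 20 µL of (R,S)-linalool, a floral-smelling terpene alcohol, evaporated in a 40 L box. No group received linalool without restraint, so linalool was measured only against stress. The authors normalized the control and stress arrays as the first set and the stress arrays a second time with the linalool arrays as the second set, so each stress rat has 2 columns, both comparisons rest on the same 6 stress rats, and levels are compared only inside a set. The labels describe separate animals, so every p-value here is set against the spread between rats in the deposited values. For the compressed probe sets defined below, the result of a test can change with the scaling.

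The block was cut by hand around the optic chiasm and closed above the third ventricle, so the ventricle lies inside it. Choroid plexus is the secretory epithelium that makes cerebrospinal fluid and hangs into the ventricles. Ependymal cells line the upper walls and beat bundles of motile cilia that move the fluid. Tanycytes are elongated radial glia of the lower walls and floor, which reach from the fluid to the hypothalamus and the median eminence and convert and pass on thyroid hormone. In bulk tissue, fewer cells of a type and less RNA per cell cannot be told apart.

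The labelled tissue was checked against hypothalamic peptide genes. The lowest signals of Pmch, which encodes melanin-concentrating hormone, and of Avp, which encodes vasopressin, were 11.35 and 9.69 log2 units over the 24 columns, whereas the column medians ran from 8.131 to 8.19. Hcrt, which encodes orexin, was never under 8.96. Oxt, which encodes oxytocin, was 9.12 in control 2, 8.0 in stress 3 (7.99 when normalized again) and 8.7 in linalool 1, so it lay under the column medians in stress 3, and the group medians of Oxt were 11.14 to 11.38. Array precision is set by the number of arrays and by a scale that differs between probe sets: the residual SD, which is the SD between arrays of a group pooled over both groups, was under 0.01 log2 for 83.5% of probe sets in the first set and for 83.7% in the other. Such probe sets are called compressed here, and their differences are given in residual SDs, because a log2 difference of theirs carries no readable size. Foxj1 was the only compressed member. Rax, the transcription factor that defines tanycytes, was compressed too, at 7.25 in the first set, against 7.27 in the second on every array.

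Promoter sequences are shown for both members that passed the test in a comparison, Rarres2 and Dynlrb2, and for Nme7, another cilia gene that passed it, so that a motif of cilia genes can be seen in place. They are RefSeq sequences of the rat assembly GRCr8, 250 bases before to 50 after the gene's start, read on the gene's strand, and 5 of the 7 members had an entry. Capitals mark matches to the letters GTTNCC and GNAAC with a spacer of 2 to 4 bases between them, searched on both strands, a form of the X-box that RFX factors bind in ciliary genes. The motif was chosen after the sequences had been seen.
Dynlrb2, chr19:61428830-61429129, plus strand: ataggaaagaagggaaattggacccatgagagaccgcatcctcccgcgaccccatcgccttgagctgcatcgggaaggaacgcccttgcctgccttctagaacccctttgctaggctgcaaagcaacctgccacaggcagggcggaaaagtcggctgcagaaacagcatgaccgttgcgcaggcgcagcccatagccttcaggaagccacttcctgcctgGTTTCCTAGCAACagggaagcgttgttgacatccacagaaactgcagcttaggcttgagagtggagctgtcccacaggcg
Nme7, chr13:79190331-79190630, plus strand: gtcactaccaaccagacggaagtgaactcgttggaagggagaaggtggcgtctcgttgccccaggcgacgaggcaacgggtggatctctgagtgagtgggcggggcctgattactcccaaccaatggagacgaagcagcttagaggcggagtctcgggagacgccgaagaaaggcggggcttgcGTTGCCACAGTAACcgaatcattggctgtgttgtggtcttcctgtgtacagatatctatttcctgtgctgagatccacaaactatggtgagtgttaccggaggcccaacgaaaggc
Rarres2, chr4:78856359-78856658, minus strand: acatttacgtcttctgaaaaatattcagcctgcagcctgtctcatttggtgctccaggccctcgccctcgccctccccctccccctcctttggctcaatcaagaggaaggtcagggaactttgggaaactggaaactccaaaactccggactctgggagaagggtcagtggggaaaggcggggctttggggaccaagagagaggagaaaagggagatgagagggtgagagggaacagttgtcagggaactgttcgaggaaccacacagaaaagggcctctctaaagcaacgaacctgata
The Dynlrb2 match begins at position -30 and the Nme7 match at position -66 relative to the gene's start. The motif occurred in 412 of all 27457 promoters of the table, or 1.5%. It occurred in 7 of the 25 promoters of measured motile cilia genes, or 28.0%, and in 1 of the 5 member promoters, that of Dynlrb2. Of the 4 cilia genes with an entry that were higher with linalool, it occurred in 2, Dynlrb2 and Nme7, and not in Tekt1 or Rfx3. A match of letters is a description and does not show binding.

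Of the 7 members, 0 passed the threshold in the comparison of stress with control, an adjusted p under 0.05 in limma's moderated test with Benjamini-Hochberg adjustment over all probe sets. Over all probe sets 0.554% passed, 0.341% higher and 0.213% lower. At an unadjusted p under 0.05, 2 of the 7 members were counted, Rarres2 and Vim, both with lower means under stress, beside 4982 of the 31042 probe sets. In the comparison of linalool under stress with stress alone, 2 of the 7 passed, Rarres2 and Dynlrb2, both higher with linalool. The background there was high, with 25.0% of all probe sets past the threshold, 14.2% higher and 10.8% lower, so the members' count is close to that of any probe set. In neither comparison did the arrays of a member's groups lie wholly apart, as they did for 1.78% of all probe sets under stress and 11.9% with linalool. Of the 57 array control probe sets, which report spiked or housekeeping sequences, 27 had an adjusted p under 0.05 with linalool and 1 under stress. Their p-values were adjusted over those 57 alone.

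**Figure D1:**
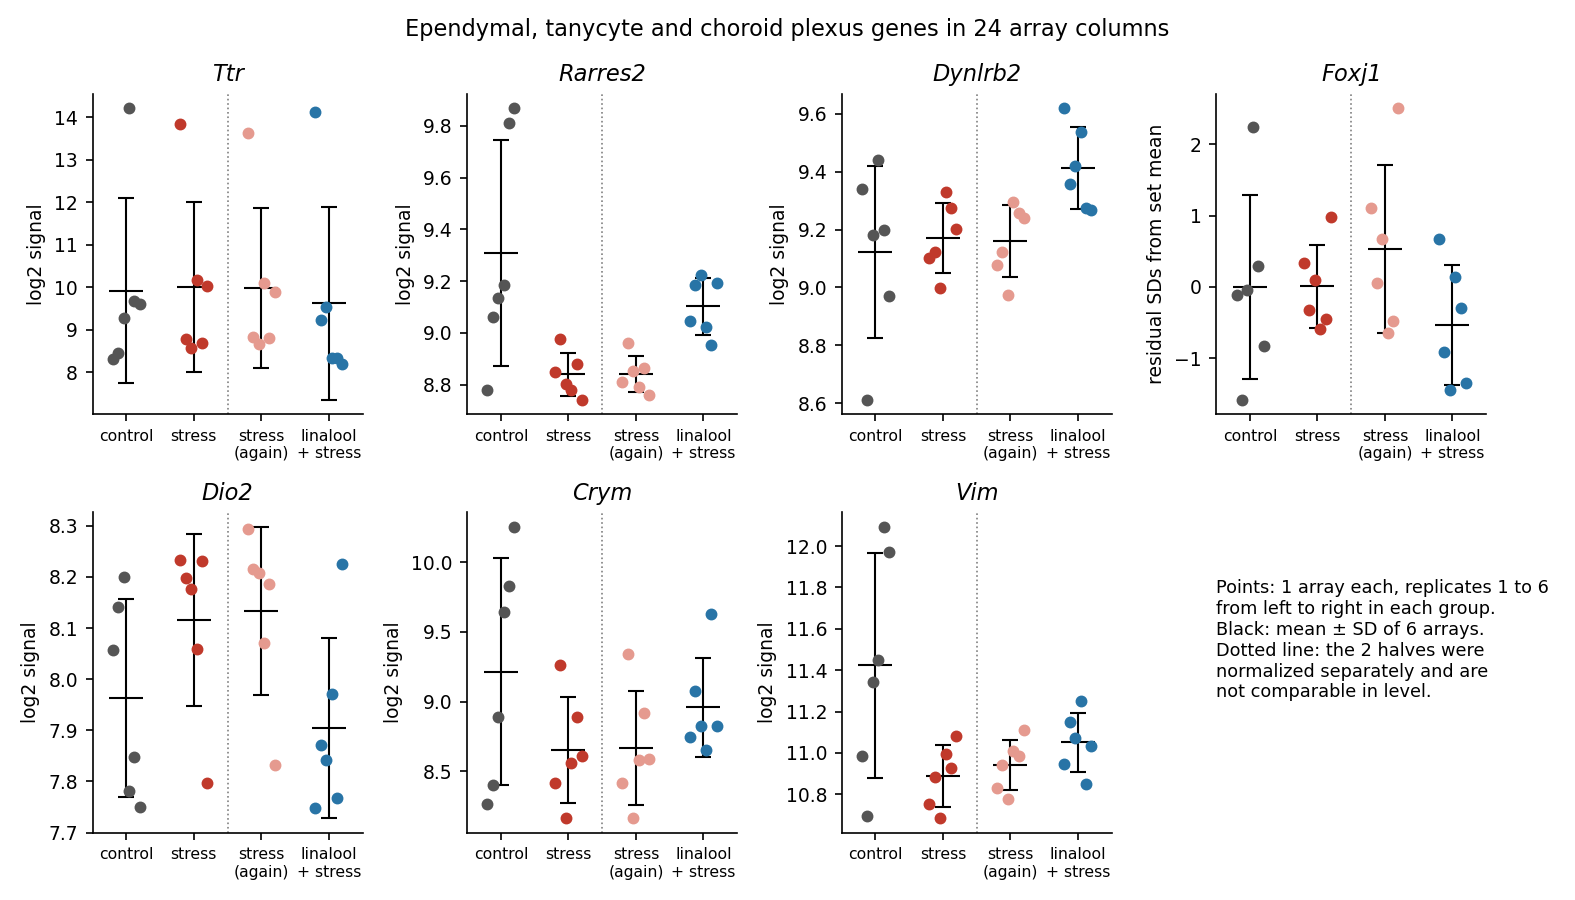
Signal of the 7 members by array, in log2 units, or for Foxj1 in residual SDs from the mean of its set; each point is 1 array, bars show the mean and SD of 6 arrays, and the dotted line separates the 2 sets. A single array per group stands far above the others for Ttr, control values of Rarres2, Crym and Vim spread widely, and linalool arrays sit above the stress arrays for Rarres2 and Dynlrb2 with little overlap.

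Ttr encodes transthyretin, the carrier of thyroxine and of retinol-binding protein, and is the most abundant product of choroid plexus. Its signals in controls 1 to 6 were 8.31, 8.46, 9.27, 14.22, 9.67 and 9.60 log2 units. In stress rats 1 to 6 they were 13.85, 8.78, 8.58, 10.18, 8.68 and 10.02. Normalized again, the same rats gave 13.64, 8.83, 8.68, 10.10, 8.81 and 9.90, and linalool rats 1 to 6 gave 14.12, 9.24, 9.53, 8.34, 8.33 and 8.2. Thus 1 rat in each group, control 4, stress 1 and linalool 1, held a very high signal, and the other 15 rats lay between 8.2 and 10.18 in either set. The gap from the highest to the next array was 4.55 log2 units in controls, a 23.4-fold step on the deposited scale, 3.67 or 12.8-fold in the stress rats as first normalized, and 4.59 or 24-fold in linalool rats.

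Those steps lie between rats of a group and exceed both group differences of Ttr. The mean was 9.92 ± 2.18 (SD, n = 6) in controls and 10.02 ± 2.00 (SD, n = 6) under stress, a difference of 0.09 (SE 1.19, 95% interval -2.53 to 2.72, limma adjusted p = 0.978). With linalool it was 9.63 ± 2.27 (SD, n = 6) against 9.99 ± 1.89 (SD, n = 6), a difference of -0.37 (SE 1.18, 95% interval -2.98 to 2.25, limma adjusted p = 0.852). Neither direction held when single arrays were left out: the stress difference was -0.67 without stress 1 and 0.95 without control 4, and the linalool difference was 0.36 without stress 1 and -1.26 without linalool 1. With control 4, stress 1 and linalool 1 all left out, a step chosen after the values were seen, the differences were 0.19 (adjusted p = 0.869) and -0.54 (adjusted p = 0.394).

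The other choroid plexus markers were mostly highest in the same 3 arrays as Ttr. Of 35 markers measured besides Ttr, 24 had their highest control signal in control 4, 27 their highest stress signal in stress 1, in either set, and 30 their highest linalool signal in linalool 1. F5, coagulation factor V, stood at 9.22 in control 4 against 6.89 to 7.00 in the other controls, at 8.82 in stress 1 against at most 7.20, and at 9.58 in linalool 1 against at most 7.00. Sostdc1, a secreted BMP antagonist, stood at 9.94, 9.61 and 10.13 in the same 3 arrays, and the next highest arrays of those groups were at 7.40, 7.65 and 7.42. Folr1, the folate receptor of the blood-fluid barrier, was at 9.65, 9.09 and 10.11 there, next to 7.99, 7.97 and 8.24. Kl, the klotho protein of choroid epithelium, was at 8.40, 8.01 and 8.72, next to 6.97, 7.06 and 7.02. All 4 markers thus single out the same rats as Ttr.

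Averaged over the 35 markers, with each gene's deviation from its set mean divided by its residual SD, control 4 scored 1.41 and the other controls -0.532 to -0.0951. Stress 1 scored 1.05 in the first set, and linalool 1 scored 1.96 with its fellow rats at -0.573 to -0.0626. By correlation of deviations from group means, the 3 genes of the array most like Ttr in both sets were F5, Sostdc1 and Mfrp, the last encoding a frizzled-related membrane protein. Over all 12 arrays Pearson's r with Ttr was 0.973 and 0.973 (first and second set) for F5, 0.973 and 0.974 for Sostdc1 and 0.964 and 0.958 for Mfrp. Over the 10 arrays left without the high-Ttr ones it was 0.83 and 0.783 for F5, 0.768 and 0.615 for Sostdc1 and 0.623 and 0.629 for Mfrp. With the mean score of the 35 markers, r was 0.546 in the first set and 0.395 in the other without the 2 arrays farthest from the median score. These are descriptions, and the 6 stress rats enter both sets.

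**Figure D2:**
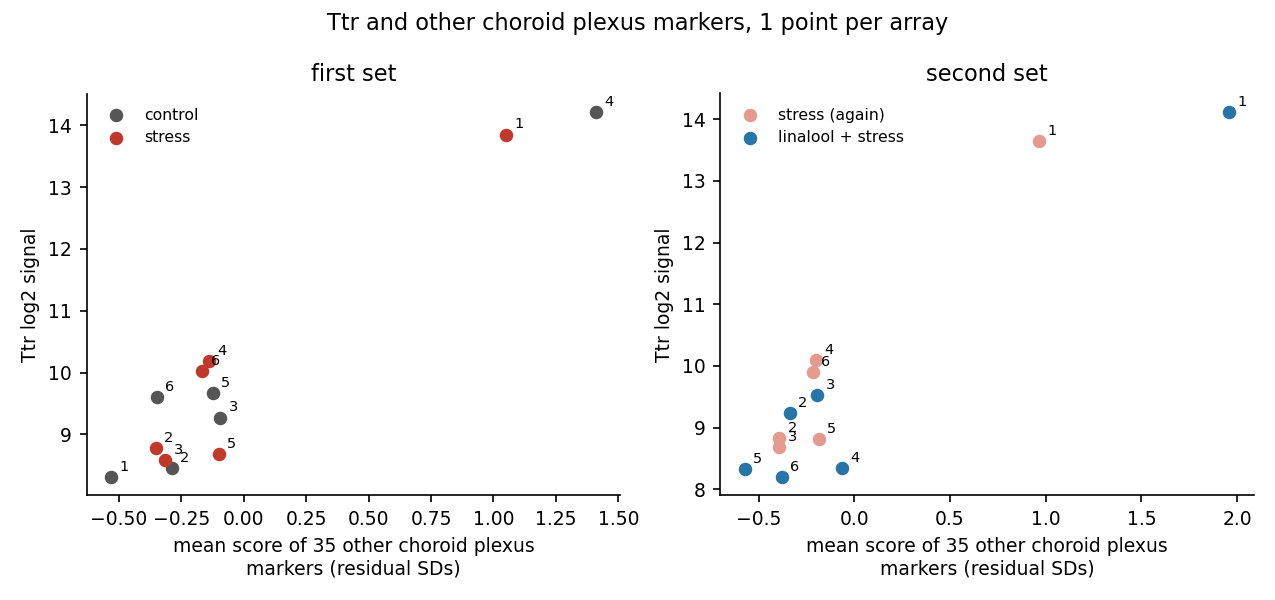
Ttr signal in log2 units against the mean score of 35 other choroid plexus markers in residual SDs, 1 point per array, numbered by replicate, with the first set on the left and the second on the right. Control 4, stress 1 and linalool 1 lie apart at upper right, with scores of 1.41, 1.05 and 1.96, and the other arrays score below 0.

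As a list, choroid plexus markers gave no call under stress: 0 of 36 measured genes of 40 listed passed, and the median difference was -0.00348 residual SDs beside 0.11 over all genes. The smallest p-values belonged to Ecrg4, a secreted augurin precursor, with a difference of -0.45 (adjusted p = 0.272), and to the sulfate transporter gene Slc13a4 with -1.28 (adjusted p = 0.279). With linalool, 1 of 36 passed, against 28.3% of all genes, and the median was 0.216 residual SDs beside 0.223 over all genes. The gene was Cab39l, a kinase scaffold, which rose by 0.21 (adjusted p = 0.0216). Without the 3 high-Ttr arrays 4 of the 36 passed, 3 higher and 1 lower.

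Foxj1 is the transcription factor that switches on the motile cilia programme of ependymal cells. Its deposited signal was 8.53 on all 12 arrays of the first set and 8.47 on all 12 of the second, with group SDs of at most 0.000377 log2. In residual SDs the stress difference was 0.0134 (95% interval -1.24 to 1.27, limma adjusted p = 0.993). The linalool difference was -1.08 (95% interval -2.35 to 0.192, adjusted p = 0.2). Its sign turned when the arrays of the second set were centred on their medians, to 65.5 residual SDs (adjusted p = 0.0358), and when they were quantile normalized, to 39.2 (adjusted p = 0.304), so no direction is given for it. The genes most like it were Tmem131l, Crb2 and Eef1akmt4, with r of 0.785, 0.752 and 0.807 in the first set, against 0.881, 0.78 and 0.746 in the second over 12 arrays.

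Dynlrb2 encodes a roadblock-type light chain of dynein found in ciliated cells. Controls 1 to 6 gave 9.34, 8.61, 9.18, 9.44, 9.20 and 8.97, and stress rats 9.10, 9.12, 9.0, 9.33, 9.27 and 9.20. The groups overlapped over the whole stress range, with control 2 the lowest array. The difference was 0.05 (SE 0.128, 95% interval -0.24 to 0.33, limma adjusted p = 0.879), and it turned to -0.05 in 1 of the fits that left out an array.

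With linalool Dynlrb2 rose. In the second set the stress rats gave 9.08, 9.12, 8.97, 9.29, 9.26 and 9.24, and linalool rats 1 to 6 gave 9.62, 9.36, 9.42, 9.54, 9.27 and 9.27. Of the 6 linalool arrays 4 lay above every stress array, and linalool 5 and 6 lay just under stress 4. The means were 9.16 ± 0.123 and 9.41 ± 0.143 (SD, n = 6 each), a difference of 0.25 (SE 0.0754, 95% interval 0.08 to 0.42, 1.19-fold, limma adjusted p = 0.0335). An exact permutation test over the 924 splits of the 12 arrays gave an unadjusted two-sided p of 0.00866. The call was narrow: it ended without linalool 1, 3 or 4 or without stress 1, 2 or 3, each left out by itself, with adjusted p-values up to 0.0687. Over all 12 such fits the difference ran from 0.21 to 0.28. It also ended without both high-Ttr arrays, with a difference of 0.19 (adjusted p = 0.111), and with quantile normalization (adjusted p = 0.0625).

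Dynlrb2 varied with other genes of motile cilia from rat to rat. Its 3 most alike genes were Dnali1, an inner dynein arm chain, Cfap126, a ciliary protein, and Tekt1, a tektin of the axoneme. Over 12 arrays, with group means removed, r was 0.898 and 0.846 for Dnali1, 0.829 and 0.842 for Cfap126, and 0.837 and 0.824 for Tekt1 in the first and second set. Without the high-Ttr arrays these were 0.868 and 0.897, 0.865 and 0.829, and 0.819 and 0.898. Dnali1 and Cfap126 were compressed in both sets, with residual SDs of at most 0.000473 log2. How far their r depends on the scaling was not tested. With the mean score of the 29 other measured genes of the cilia list, r was 0.889 and Spearman's rho 0.804 in the first set, and 0.79 and 0.762 in the second. Without the 2 arrays farthest from the median score r was 0.696 and 0.711. In the second set Dynlrb2 was about as close to other lists, with r of 0.737 for meninges (0.624 without the 2 farthest arrays), 0.655 for pituitary genes (0.798) and 0.491 for choroid plexus (0.838). In the first set these were 0.131 (0.412), 0.282 (0.31) and 0.339 (0.163). The lists next closest to Dynlrb2 there were thyroid hormone handling, with r of 0.748 (0.518), and tanycyte, with 0.583 (0.425). In the second set r was 0.0405 (-0.114) for thyroid hormone handling and 0.552 (0.473) for tanycyte. The arrays share a tissue block and a normalization, and the stress rats are common to both sets.

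**Figure D3:**
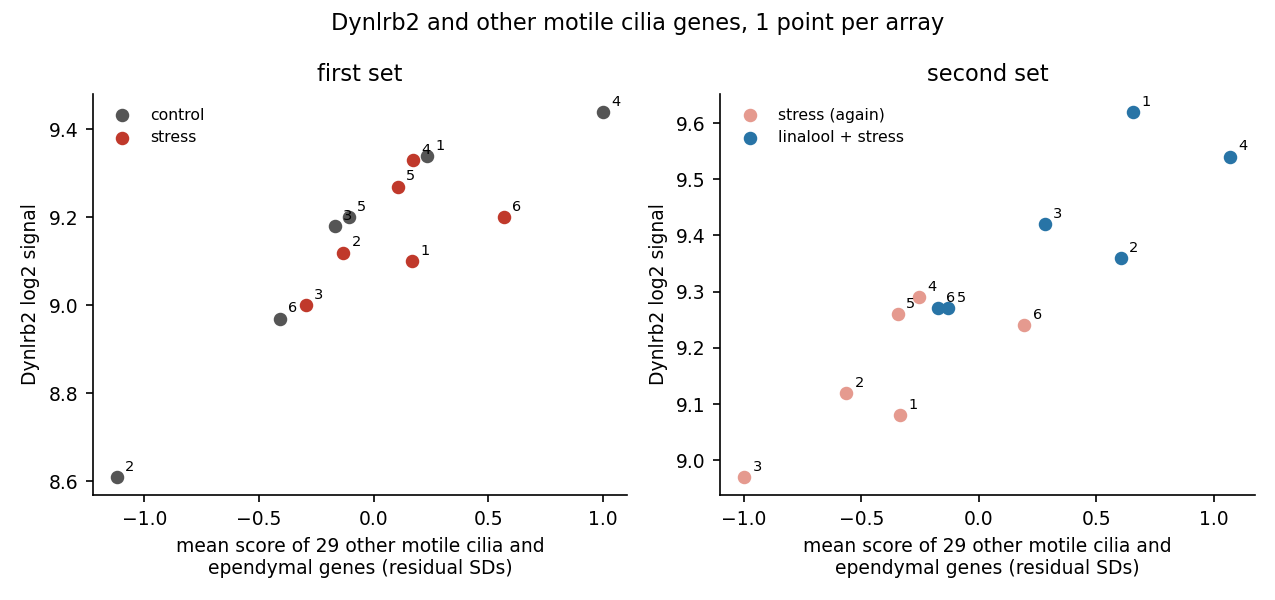
Dynlrb2 signal in log2 units against the mean score of 29 other motile cilia and ependymal genes in residual SDs, 1 point per array, numbered by replicate, with the first set on the left and the second on the right. Control 2 is lowest on both axes, and control 4 and linalool 1 and 4 are among the highest on both.

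The cilia list held 31 measured genes of 53 listed. Under stress 0 of 31 passed, beside 0.598% of all genes, and the median difference was 0.209 residual SDs beside 0.11 over all genes. The smallest p-values were those of Tekt4, another tektin, with a difference of 0.40 (adjusted p = 0.182), and of the axonemal gene Spag16 with 1.12 residual SDs (adjusted p = 0.36). With linalool 7 of 31 passed, all higher, or 22.6% against 19.3% of all genes that were higher, and the median was 0.702 residual SDs beside 0.223. These 7 were Nme7, Tppp3, Rfx3, Tekt1, Rsph1, Dynlrb2 and Dynlrb1. Of the 31 genes 24 were compressed in this comparison, so the median rests largely on probe sets whose direction depends on the scaling.

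Tppp3, a microtubule-stabilizing protein rich in ciliated cells, gave 9.98, 10.09, 9.66, 9.82, 9.81 and 9.88 in the stress rats of the second set. In linalool rats 1 to 6 it gave 10.38, 10.44, 10.27, 10.25, 10.28 and 10.31. All 6 linalool arrays lay above every stress array, a rise of 0.45 (SE 0.0659, adjusted p = 0.00112), and the call held in all 12 fits that left out an array and with quantile normalization. Groups that do not overlap were found for 14.2% of all genes in this comparison. In the first set the highest control signal of Tppp3 was in control 2, at 9.99, where the cilia score was lowest, at -1.12.

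Tekt1 rose by 0.13 (SE 0.0384, adjusted p = 0.0309), with 5 of 6 linalool arrays above every stress array. Its call held in 7 of the 12 fits that left out an array. Rfx3, a transcription factor that binds X-box motifs, rose by 0.05 (SE 0.0131, adjusted p = 0.0227). The remaining 3 were compressed: Nme7, a ciliary nucleoside diphosphate kinase family member, with 3.95 residual SDs (adjusted p = 0.00108), Rsph1, a radial spoke protein, with 1.91 (adjusted p = 0.0331), and Dynlrb1, the dynein light chain of all cell types, with 1.93 (adjusted p = 0.0381). With quantile normalization Nme7 had an adjusted p of 0.947 and Rsph1 of 0.0559, and Dynlrb1 was lower instead of higher (adjusted p = 0.0105). Without the high-Ttr arrays, linalool 1 and stress 1, only Tppp3 and Nme7 of the 7 passed, with adjusted p-values of 0.00605 and 0.00697.

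Rarres2 encodes chemerin, a secreted chemoattractant and adipokine that tanycytes also make. Controls 1 to 6 gave 8.78, 9.06, 9.14, 9.18, 9.81 and 9.87, and stress rats 8.85, 8.98, 8.80, 8.78, 8.88 and 8.74. Every stress array lay under the control mean, but control 1 lay among the stress arrays. The means were 9.31 ± 0.437 and 8.84 ± 0.0839 (SD, n = 6 each), a difference of -0.47 (SE 0.178, 95% interval -0.86 to -0.07, limma adjusted p = 0.244). The exact permutation test gave an unadjusted two-sided p of 0.013. With controls 4, 5 and 6 left out, the difference was -0.15 (adjusted p = 0.594). These were its highest controls, so leaving them out was bound to shrink the difference.

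With linalool Rarres2 rose. The stress rats of the second set gave 8.81, 8.96, 8.85, 8.79, 8.87 and 8.76, and linalool rats 1 to 6 gave 9.05, 9.18, 9.22, 9.02, 8.95 and 9.19. All but linalool 5 lay above every stress array, and linalool 5 lay just under stress 2. The means were 8.84 ± 0.0703 and 9.10 ± 0.11 (SD, n = 6 each), a difference of 0.26 (SE 0.0523, 95% interval 0.15 to 0.38, 1.2-fold, limma adjusted p = 0.00517). The exact permutation test gave an unadjusted two-sided p of 0.00433. The call held in all 20 alternatives tried, with adjusted p-values from 0.00296 to 0.0232 and, over the fits that left out an array, differences from 0.24 to 0.29. The genes most like Rarres2 were Ccnl1, a cyclin of splicing bodies, Aldh3a1, an aldehyde dehydrogenase, and Rbm39, a splicing factor, with r of 0.711, 0.802 and 0.814 in the first set, against 0.754, 0.678 and 0.674 in the second over 12 arrays.

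The chemerin and retinoid list held 17 measured genes of 19 listed and covers chemerin's receptors and the synthesis, binding and receptors of retinoic acid, the signal after which Rarres2 was named. Under stress 0 of 17 passed. Aldh1a2, a retinaldehyde dehydrogenase of the meninges, had a difference of -1.15 (adjusted p = 0.237), and Rbp4, plasma retinol-binding protein, one of -0.72 (adjusted p = 0.237). With linalool 4 rose and 1 fell, beside 19.3% and 9.08% of all genes. Aldh1a1, another retinaldehyde dehydrogenase, rose by 0.36 (adjusted p = 0.00773) in a call that held in all 12 fits that left out an array. Dhrs3, a retinaldehyde reductase, rose by 0.15 (adjusted p = 0.0356). Its call was lost in 8 of those fits and, at 0.127, without the high-Ttr arrays. The compressed Crabp1, a retinoic acid binding protein, and Rarg, a retinoic acid receptor that was lower, lost their calls with quantile normalization (adjusted p = 0.165 and 0.703), and Rarg's direction turned.

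Vim encodes vimentin, the intermediate filament of tanycytes, ependyma, meningeal fibroblasts and endothelium. Controls 1 to 6 gave 10.99, 10.69, 11.34, 11.45, 12.09 and 11.97, and stress rats 10.75, 10.88, 10.68, 11.00, 10.93 and 11.08. Controls 3 to 6 lay above every stress array, whereas controls 1 and 2 lay within the stress range. The means were 11.42 ± 0.544 and 10.89 ± 0.149 (SD, n = 6 each), a difference of -0.53 (SE 0.226, 95% interval -1.03 to -0.03, limma adjusted p = 0.283). The exact permutation test gave an unadjusted two-sided p of 0.0411.

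In the second set Vim was 10.83, 10.94, 10.78, 11.01, 10.99 and 11.11 in the stress rats and 10.95, 11.15, 11.07, 11.25, 10.85 and 11.03 in the linalool rats. The groups overlapped widely, and the difference was 0.11 (SE 0.0749, 95% interval -0.06 to 0.27, limma adjusted p = 0.326). Its most alike genes were Cp, Rbpms and S100a11, encoding the copper carrier ceruloplasmin, an RNA-binding protein and a calcium-binding protein. Over 12 arrays r was 0.974, 0.96 and 0.988 in the first set, against 0.922, 0.849 and 0.868 in the second.

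Markers of the meninges, the fibroblast sheets that wrap the brain and can be cut with a block, moved with Vim, Rarres2 and Crym in the first set. Their mean score over 14 genes was -1.06, -0.588, 0.474, 0.823, 2.29 and 2.15 in controls 1 to 6, and from -0.908 to -0.444 in the stress rats. All 14 had a lower mean under stress, with a median of -1.42 residual SDs beside 0.11 over all genes. Of the 14, 0 passed the test, beside 0.598% of all genes. Col1a2, a collagen chain of fibroblasts, differed by -1.22 (adjusted p = 0.237). With group means removed, r with that score was 0.949 for Vim (rho 0.972), 0.924 for Rarres2 (rho 0.664) and 0.863 for Crym (rho 0.86). Without the 2 arrays farthest from the median it was 0.966, 0.828 and 0.825. The meninges were not alone in this. For the score of the 7 glial intermediate filament genes other than Vim, r was 0.82, 0.852 and 0.855. Without the 2 arrays farthest from that score's median it was 0.808, 0.587 and 0.694.

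In the second set the score ran from -0.911 to 0.88 in stress rats and from -0.691 to 0.575 in linalool rats. There r was 0.705 for Vim, against 0.76 with the cilia list and 0.725 with the tanycyte list. For Rarres2 and Crym r with the meningeal score was -0.208 and -0.197. Likewise Rarres2, Crym and Vim correlated with each other at 0.835 to 0.859 in the first set, against -0.119 to 0.119 in the second. Without controls 4, 5 and 6, which score highest for the meninges, the stress difference of Vim was -0.12 (adjusted p = 0.822). They were also the highest controls for Vim, so this step was bound to shrink its difference. With linalool 0 of 14 meningeal markers passed, beside 28.3% of all genes. The smallest p-value was that of Slc22a6, an organic anion transporter, at -1.52 residual SDs (adjusted p = 0.0771). Next came the matrix gene Ogn at 0.14 (adjusted p = 0.215).

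**Figure D4:**
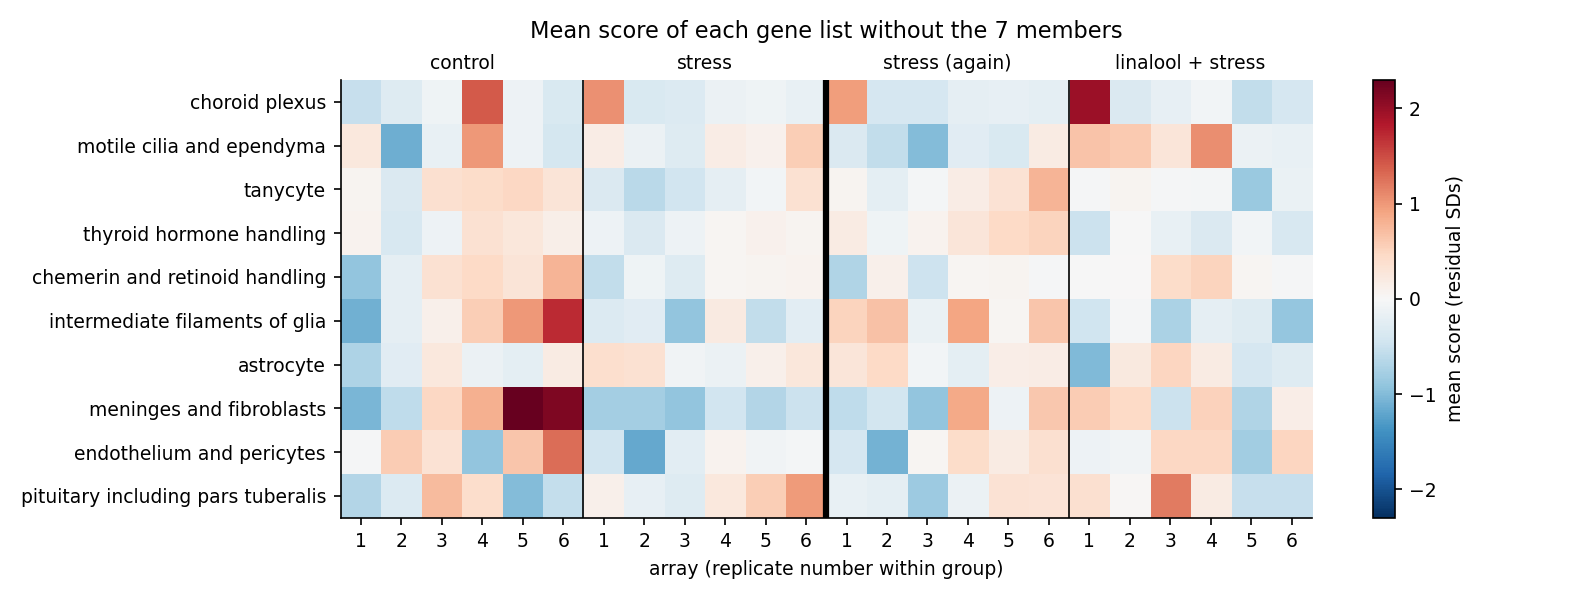
Mean score of 10 gene lists, each without the 7 members, in residual SDs by array; columns are arrays by group and replicate, the thick line separates the 2 sets, and red is above and blue below the list's mean in its set. Controls 5 and 6 score 2.29 and 2.15 for meninges, and control 4, stress 1 and linalool 1 score 1.41, 1.05 and 1.96 for choroid plexus.

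The tanycyte list held 27 measured genes of 30 listed, 4 of them members. With group means removed, r with the mean score of the 23 others was -0.659 and -0.294 for Dio2 (first and second set). It was 0.377 and -0.492 for Crym, 0.238 and 0.0927 for Rarres2, and 0.668 and 0.725 for Vim. Thus Dio2, Crym and Rarres2 did not vary closely with the other tanycyte genes in both sets. Under stress 1 of 27 passed, Sox2, a transcription factor of neural stem cells and glia, which fell by 0.40 from 10.75 to 10.35 (SE 0.0641, adjusted p = 0.0306), with all 6 stress arrays under every control, beside 0.197% of all genes that passed as lower. That call held in 3 of the 12 fits that left out an array. Under stress 1.86% of all genes had groups that lay apart. With linalool 2 rose, Rarres2 and the secreted Wnt antagonist gene Frzb by 0.44 (adjusted p = 0.0247), and 2 fell. That is 7.41% higher beside 19.3% of all genes, and 14.8% past the threshold in either direction beside 28.3%. Frzb's call ended without linalool 1, 2 or 4 and, at 0.0875, without the high-Ttr arrays. The genes that fell were both compressed: Nes, the filament nestin, at -3.69 residual SDs (adjusted p = 0.00141), and Cpe, a prohormone-processing carboxypeptidase, at -1.99 (adjusted p = 0.0433). With quantile normalization neither passed (adjusted p = 0.21 and 0.348), and Nes turned direction.

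Among 8 glial intermediate filament genes 0 passed under stress, where Nes had a difference of -1.45 residual SDs (adjusted p = 0.254), and 1 passed with linalool, Nes as above. Of 11 astrocyte genes 0 passed under stress, where the smallest p-values were those of Aldoc at 0.14 (adjusted p = 0.142) and of Fgfr3 (adjusted p = 0.202). With linalool Gjb6, a connexin, rose by 0.08 (adjusted p = 0.0427) and Slc1a2, the main glutamate transporter, fell by 0.43 (adjusted p = 9.74e-05). Gjb6 kept its call in 4 of the 12 fits that left out an array and Slc1a2 in all of them. Of 12 endothelial and pericyte genes, Kdr, a VEGF receptor, fell by 0.64 under stress (adjusted p = 0.0351), a call that held in 2 of the 12 fits that left out an array. With linalool Esam, an endothelial adhesion molecule, rose by 0.14 (adjusted p = 0.000247), the compressed Cldn5 was higher by 3.26 residual SDs (adjusted p = 0.00284, lower with quantile normalization), and Rgs5, a pericyte marker, fell by 0.65 (adjusted p = 2.25e-05). Of 9 pituitary genes 0 passed under stress, where Prl and Gh1 had the smallest p-values (adjusted p = 0.379 and 0.506). The compressed Gh1 was lower with linalool, at -2.21 residual SDs (adjusted p = 0.0186), a direction that turned with quantile normalization. With linalool the shares past the threshold were 12.5% (filament), 18.2% (astrocyte), 25.0% (endothelial and pericyte) and 11.1% (pituitary), beside 28.3% of all genes. Under stress 8.33% of the endothelial and pericyte list passed, the single gene Kdr, beside 0.598% of all genes.

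Dio2 encodes type II deiodinase, which tanycytes and astrocytes use to turn thyroxine into the active hormone triiodothyronine. Controls 1 to 6 gave 8.06, 8.14, 8.2, 7.78, 7.85 and 7.75, and stress rats 8.23, 8.2, 8.18, 8.06, 8.23 and 7.80. Of the stress arrays 5 lay above the control mean, but only 2 above every control. The means were 7.96 ± 0.194 and 8.12 ± 0.168 (SD, n = 6 each), a difference of 0.15 (SE 0.103, 95% interval -0.08 to 0.38, limma adjusted p = 0.475). It was -0.02 with controls 4, 5 and 6 left out. Those were its lowest controls, so that step was bound to shrink or turn the difference.

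With linalool Dio2 had the lower mean. The stress rats of the second set gave 8.29, 8.21, 8.21, 8.07, 8.19 and 7.83, and linalool rats 1 to 6 gave 7.75, 7.87, 7.84, 7.97, 7.77 and 8.23. Linalool 6 and stress 6 each lay on the other group's side. The difference was -0.23 (SE 0.0965, 95% interval -0.44 to -0.02, unadjusted limma p = 0.0381, adjusted p = 0.109), and the exact permutation test gave an unadjusted two-sided p of 0.0519. It passed the threshold when linalool 6 (adjusted p = 0.0292) or stress 6 (adjusted p = 0.0343) was left out, and it was -0.17 (adjusted p = 0.313) without the high-Ttr arrays. The genes most like Dio2 were Rab27b, a vesicle GTPase, Bmpr2, a BMP receptor, and Zfp91, a zinc finger protein, with r of 0.904, 0.893 and 0.89 in the first set, against 0.893, 0.905 and 0.905 in the second over 12 arrays.

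Crym encodes mu-crystallin, a cytosolic protein that binds and retains triiodothyronine. Controls 1 to 6 gave 8.26, 8.40, 8.89, 9.64, 9.83 and 10.26, and stress rats 8.42, 9.26, 8.17, 8.56, 8.89 and 8.61. Controls 4, 5 and 6 lay above every stress array and controls 1 to 3 among them. The difference was -0.56 (SE 0.36, 95% interval -1.36 to 0.24, limma adjusted p = 0.45), and it was 0.13 with controls 4, 5 and 6 left out. Those were its highest controls, so that step was bound to shrink or turn the difference.

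In the second set Crym was 8.41, 9.34, 8.16, 8.58, 8.92 and 8.59 in stress rats and 8.75, 9.07, 8.82, 8.65, 9.63 and 8.83 in linalool rats. Stress 2 and linalool 5 were the highest arrays of their groups, and the groups overlapped. The difference was 0.29 (SE 0.218, 95% interval -0.19 to 0.77, limma adjusted p = 0.364). The genes most like Crym were Rasgef1a, Icam5, an adhesion molecule of forebrain neurons, and Cacna1h, a T-type calcium channel. Over 12 arrays r was 0.937, 0.975 and 0.95 in the first set, against 0.931, 0.927 and 0.915 in the second, and without the high-Ttr arrays it was 0.945 to 0.987 and 0.955 to 0.98.

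The thyroid hormone list covers carriers, transporters, deiodinases, receptors, cofactors and target genes, with 35 measured of 38 listed. With group means removed, r with the mean score of the 32 non-members was -0.675 and -0.464 for Dio2 (first and second set). It was 0.438 and 0.15 for Crym, and 0.416 and -0.226 for Ttr. Under stress 1 passed, Klf9, a transcription factor induced by thyroid hormone and also by glucocorticoids, which rose by 0.38 from 11.64 to 12.02 (SE 0.0474, adjusted p = 0.0143), with all 6 stress arrays above every control. Of all genes 0.401% passed as higher, and 1.86% had groups that lay apart. Its call held in all 12 fits that left out an array and was lost at 0.0631 without the high-Ttr arrays. With linalool 2 of 35 rose and 4 fell, or 5.71% higher beside 19.3% of all genes and 17.1% past the threshold in either direction beside 28.3%. Slc3a2, the heavy chain of amino acid and thyroid hormone transporters, rose by 0.23 (adjusted p = 0.0109). Rxrb, a retinoid X receptor that pairs with thyroid hormone receptors, fell by 0.25 (adjusted p = 5.28e-05), and Ncoa1, a receptor coactivator, fell by 0.17 (adjusted p = 0.000957). Those 3 calls held in all 12 fits that left out an array, with quantile normalization and without the high-Ttr arrays.

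The other 3 genes were compressed. Thrb, a thyroid hormone receptor, was higher by 1.95 residual SDs (adjusted p = 0.0307). The coactivator Ncoa2 was lower, at -2.42 (adjusted p = 0.0129), and so was the corepressor Ncor1, at -1.91 (adjusted p = 0.0322). With quantile normalization none of these 3 passed, with adjusted p-values of 0.977, 0.0629 and 0.506, and Ncoa2 turned direction. Over the 10 lists, 28 different genes passed with linalool, of which 12 were compressed. With quantile normalization 6 of those 12 turned direction and 1 passed, whereas of the 16 others 0 turned and 13 passed.

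**Figure D5:**
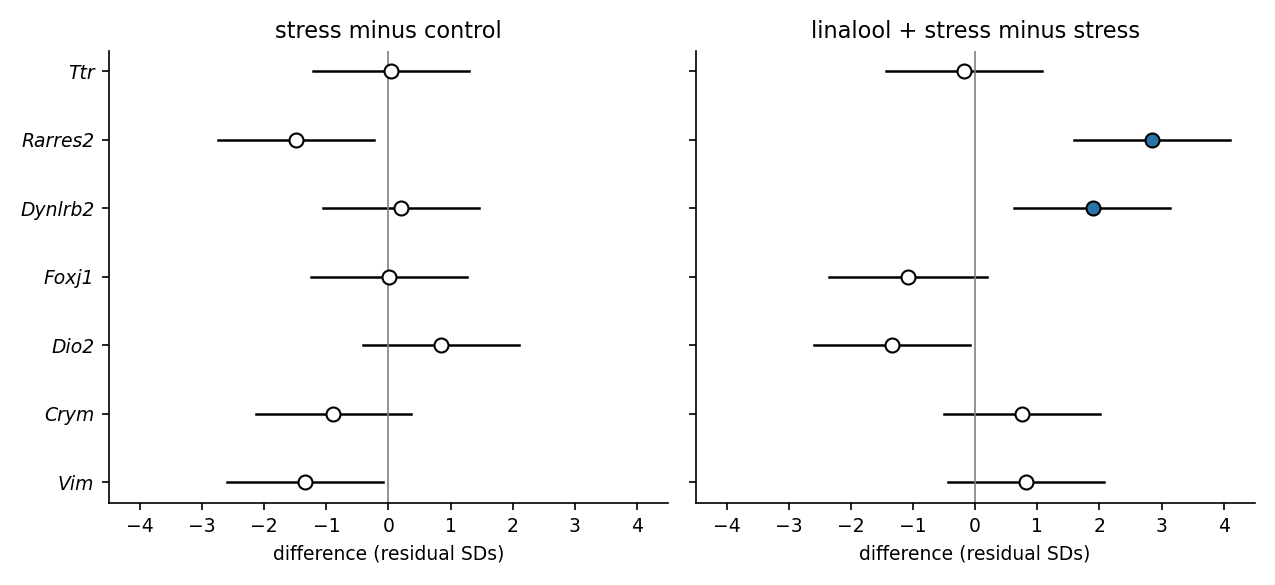
Difference between groups for each member in residual SDs, with its 95% interval from the limma fit (6 arrays against 6); filled points passed the threshold. Of the 14 intervals, those of Rarres2 in both comparisons, Vim under stress, and Dynlrb2 and Dio2 with linalool leave out 0, and the adjusted p passed for Rarres2 and Dynlrb2 with linalool.

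Both comparisons share the stress rats, so their values are only set side by side. For Rarres2 stress minus control was -0.47 and linalool minus stress 0.26, for Dynlrb2 0.05 and 0.25, for Dio2 0.15 and -0.23, for Crym -0.56 and 0.29, for Vim -0.53 and 0.11, and for Ttr 0.09 and -0.37. The values of the same 6 stress arrays correlated between the sets at 0.932 for Rarres2 and at 0.977 to 0.999 for the other members.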

How the data were processed

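Biotin-labelled cRNA from 500 ng of total RNA per hypothalamic block was read on a 3' expression array, per the labels' protocols. The deposited log2 values come from 2 sets normalized separately by the authors, per the series design text; the sources used here do not give the summarization and normalization method, and the log2 scale was read from the values (5.593 to 14.93). Array controls (57 of 31099 probe sets) were left out of the tests. For each set a linear model was run in R 4.3.3 with limma 3.58.1 (eBayes, two-sided, no filter or further normalization), with Benjamini-Hochberg adjustment over 31042 probe sets and a threshold of 0.05; the procedure was tested on simulated data. List genes were read from the gene's probe set with the highest mean. The members and gene lists were chosen with earlier results of these data known. The text names all members, up to 4 genes per list and direction with the smallest p past the threshold (otherwise 2 genes), and the 3 genes most like each member in both sets. Genes named in the tissue check, the choroid markers with values by array and the motif were chosen after seeing values. Alternatives were each of the 12 arrays left out, controls 4, 5 and 6 left out, median centring, quantile normalization, 1 probe set per gene, low signals left out, trend and robust moderation, no moderation, and the replicate block; leaving out the high-Ttr arrays was added after seeing the data.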

Additional observations from a re-analysis of the deposited data

Results flagged for a closer look

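For each member, every group of 6 arrays was searched for an array far from the rest, by the ratio of its gap from the nearest array to the group's range, against Dixon's critical value. Of 28 groups 4 held such an array, all for Ttr. Chance marks about 1 in 20 separate groups, but the same stress rats were searched in both sets, so the 28 are not all separate. The arrays were control 4 at 14.22 log2 units (ratio 0.77), stress 1 at 13.85 in the first set (0.698) and, as the same rat, at 13.64 in the second set (0.712), and linalool 1 at 14.12 (0.775). In the same arrays 24, 27, 27 and 30 of the 35 other choroid plexus markers were at the highest signal of their group.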

How the results depend on the processing

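Rarres2 with linalool kept its direction and its call in all 20 alternatives, and Dynlrb2 kept its direction in all 20 and lost its call in 9; in the first comparison no member passed in any of 21. With the replicate number as a block, the probe sets past the threshold under stress went from 172 to 16 and the members past it with linalool from 2 to 1 (Dynlrb2, adjusted p = 0.0973). Same-numbered arrays correlated at 0.0755 to 0.223 in the first set and -0.105 to 0.182 in the second, and 3 and 1 of 6 matched their own number best, so the numbers were not taken as pairs. Under stress the 172 probe sets became 101 with 1 probe set per gene, 1 without controls 4, 5 and 6, 32 without the high-Ttr arrays, 92 with median centring, 77 with quantile normalization, and 24 to 205 when 1 array was left out; the 3 list genes became 0 without the high-Ttr arrays and 1 to 3 when 1 array was left out. With linalool the 7763 probe sets became 4229 with 1 probe set per gene (67.4% of them higher, against 56.7%), 28990 with median centring (94.9% higher) and 2608 with quantile normalization, and 6383 to 7466 when 1 array was left out. The 28 list genes became 17 without the high-Ttr arrays, 127 with median centring and 15 with quantile normalization. Of all probe sets 5475 passed without the high-Ttr arrays. The members past the threshold became 1 without the high-Ttr arrays or with quantile normalization, 4 with median centring, and 1 to 3 when 1 array was left out. Differences that turned sign were, for Dio2 and Crym under stress, -0.02 and 0.13 without controls 4, 5 and 6, and for Foxj1 with linalool 65.5 and 39.2 residual SDs with median centring and quantile normalization. Those controls were the lowest for Dio2 and the highest for Crym, Rarres2 and Vim, so leaving them out was bound to shrink or turn these stress differences. When 1 array was left out, Ttr ran from -0.67 to 0.95 under stress and from -1.26 to 0.36 with linalool, Dynlrb2 under stress from -0.05 to 0.11, and Foxj1 under stress from -0.30 to 0.461 residual SDs. Apart from the arrays left out or the smaller number of features tested, the cause was not tested. Leaving out low signals dropped Dio2, which has no value there. Compressed probe sets limit what can be read, since their direction depends on the scaling.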
